A study of Rattus norvegicus with 16 samples.

Results

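The 34 genes described here run the cell division cycle and copy the genome. They comprise the subunits of the replicative helicase (Mcm2 to Mcm7), enzymes and factors of DNA synthesis (Pcna, Tyms, Rrm2), the cyclins and kinases of G1 and S phase, the Rb1 and E2f1 switch, the inhibitors of cyclin-dependent kinases, and genes of G2 and mitosis. A probe set was taken for a gene where the platform table gave exactly that symbol, and where a gene had several, the probe set with the highest mean over the 16 arrays stood for it. By this rule 33 of the 34 genes were measured, out of 14217 genes and 31042 probe sets in all. Rrm2 was left out because its 2 probe sets each carry more than 1 symbol.

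Left ventricular RNA of 16 female rats, each on an array of its own, was hybridised to the Affymetrix RAE 230 2.0 platform. All rats belonged to generation 16 of a selection experiment that began with N:NIH stock and mated the best and the poorest treadmill runners among themselves, running being tested first at an age near 11 weeks. The line selected upwards is abbreviated HCR (High Capacity Runner) and the line selected downwards LCR (Low Capacity Runner). Each line gave 4 sedentary and 4 trained rats, all killed at about 7 months of age. Training took 8 weeks with 5 sessions a week, each of 1.5 hours on a treadmill inclined by 25°, in which intervals of 8 minutes at 85 to 90% of maximal oxygen uptake alternated with 2 minutes at 50 to 60%. Sedentary rats were of matched age. No transgene or drug was used, and each line is a single selected population, so that the line effect stands for all that separates those populations. The question posed by the design is which ventricular transcripts differ by inborn capacity, by training, and by the combination of both.

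The helicase made of Mcm2 to Mcm7 is loaded on DNA in G1 and unwinds it in S phase. D-type and E-type cyclins with Cdk4, Cdk6 and Cdk2 inactivate Rb1, which releases E2F factors to switch on replication genes, and Cdkn1a, Cdkn1b and Cdkn1c hold these kinases back. The mitotic genes Cdk1, Ccnb1, Ccnb2, Plk1, Aurkb, Bub1b, Cdc20, Birc5, Top2a and Mki67 are switched on later, as cells go from late S phase to division. In the adult heart most cardiomyocytes no longer divide, and cycling cells are chiefly endothelial, stromal and immune cells. In a piece of ventricle fewer cycling cells and less RNA per cell cannot be told apart.

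Promoter sequences are shown for the genes on which the results below turn, since E2F motifs are known from replication genes and CHR and CCAAT motifs from mitotic genes. The sequences are the 150 bases before the annotated start, on the gene's own strand, from RefSeq on the rat build GRCr8. Of the 33 measured genes 25 had an entry in this table. Mcm4, Ccna2, Ccnd1, Ccnd2, Cdk6, Cdkn1c, Aurkb and E2f1 had none.

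The helicase genes come first. Mcm2 lies at chr4:122918095-122918244 (minus strand), Mcm5 at chr19:13488663-13488812 (plus strand), Mcm6 at chr13:42404353-42404502 (minus strand) and Mcm7 at chr12:22163179-22163328 (minus strand). Capitals mark an E2F motif (TTTCCCGC, TTTGGCGC, TTTCGCGC or TTTGCCGC) or the CCAAT box, read on both strands, so that GCGCGAAA and ATTGG are the reverse readings.
Mcm2: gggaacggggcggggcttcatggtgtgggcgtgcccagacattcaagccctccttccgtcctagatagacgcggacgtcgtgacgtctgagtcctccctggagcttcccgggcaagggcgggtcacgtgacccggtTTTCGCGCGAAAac
Mcm5: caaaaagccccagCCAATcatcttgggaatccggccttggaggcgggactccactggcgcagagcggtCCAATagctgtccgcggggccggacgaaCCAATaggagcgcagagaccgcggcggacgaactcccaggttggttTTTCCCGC
Mcm6: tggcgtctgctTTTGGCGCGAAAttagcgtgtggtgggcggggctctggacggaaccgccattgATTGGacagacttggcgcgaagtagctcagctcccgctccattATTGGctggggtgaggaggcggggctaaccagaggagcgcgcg
Mcm7: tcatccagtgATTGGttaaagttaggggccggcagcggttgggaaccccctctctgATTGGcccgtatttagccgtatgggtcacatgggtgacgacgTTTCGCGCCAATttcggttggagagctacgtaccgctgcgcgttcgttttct

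An E2F motif stood in the promoters of 5 of 5 helicase genes with an entry (Mcm2, Mcm3, Mcm5, Mcm6 and Mcm7), searched over the 300 bases from 250 before to 50 after the start. The same motifs stood in 2.14% of all 33469 promoters in the table. In Mcm2 and Mcm6 the marked run is a pair of E2F motifs that overlap on opposite strands, and in Mcm7 the E2F motif overlaps a CCAAT box.

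The mitotic genes follow, with Plk1 and Cdkn1b. Cdk1 lies at chr20:19265143-19265292 (plus strand), Ccnb2 at chr8:79981659-79981808 (minus strand), Cdc20 at chr5:137255800-137255949 (minus strand), Bub1b at chr3:126016917-126017066 (plus strand), Top2a at chr10:84473094-84473243 (minus strand), Plk1 at chr1:186147508-186147657 (plus strand) and Cdkn1b at chr4:169491354-169491503 (plus strand). Here capitals also mark the cell cycle homology region, CHR (TTTGAA or TTCGAA, both strands, TTCGAA reading the same on either).
Cdk1: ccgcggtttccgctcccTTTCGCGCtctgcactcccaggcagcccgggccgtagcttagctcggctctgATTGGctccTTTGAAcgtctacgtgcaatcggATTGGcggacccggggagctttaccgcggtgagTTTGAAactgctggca
Ccnb2: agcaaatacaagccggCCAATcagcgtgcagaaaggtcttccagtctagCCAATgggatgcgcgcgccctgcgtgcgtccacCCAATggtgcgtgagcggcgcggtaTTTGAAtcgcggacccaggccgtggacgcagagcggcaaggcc
Cdc20: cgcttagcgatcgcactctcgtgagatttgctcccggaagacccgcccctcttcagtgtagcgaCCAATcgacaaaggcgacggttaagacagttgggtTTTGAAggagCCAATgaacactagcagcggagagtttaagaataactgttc
Bub1b: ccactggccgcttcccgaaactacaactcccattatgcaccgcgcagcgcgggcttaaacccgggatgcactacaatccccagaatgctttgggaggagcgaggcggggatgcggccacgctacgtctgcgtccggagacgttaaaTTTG
Top2a: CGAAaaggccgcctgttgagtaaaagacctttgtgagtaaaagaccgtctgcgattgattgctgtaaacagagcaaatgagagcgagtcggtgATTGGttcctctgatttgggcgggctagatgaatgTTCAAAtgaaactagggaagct
Plk1: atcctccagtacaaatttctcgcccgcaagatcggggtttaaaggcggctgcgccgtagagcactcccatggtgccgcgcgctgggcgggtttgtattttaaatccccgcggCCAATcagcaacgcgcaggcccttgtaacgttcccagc
Cdkn1b: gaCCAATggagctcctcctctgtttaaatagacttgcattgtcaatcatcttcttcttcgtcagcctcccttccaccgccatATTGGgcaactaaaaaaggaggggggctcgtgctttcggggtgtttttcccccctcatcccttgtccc

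The last capitals of Bub1b and the first of Top2a are parts of CHR motifs that run past the printed stretch, and the CHR of Plk1 lies after its start, outside it. A CHR stood in 8 of 9 G2 and mitosis genes with an entry, against 19.7% of all promoters. A CCAAT box stood in 8 of 9, against 37.5%. Both stood in 7 of 9, against 7.95%. Of the 5 helicase genes 4 held a CCAAT box, 2 a CHR and 1 both, so these motifs were not limited to the mitotic genes. The Cdkn1b promoter held CCAAT boxes and neither of the other motifs. These matches describe letters in a window and are not measured binding sites.

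Values are log2 levels after robust multiarray averaging, so a difference of 1 is a doubling. Array medians lay between 5.85 and 5.95 and any 2 arrays correlated at 0.984 to 0.995 over all probe sets. The interquartile range of an array was 1.97 to 2.10 in sedentary HCR and 2.14 to 2.21 in sedentary LCR, without overlap, and 2.06 to 2.27 over the trained rats of both lines. The mean level of 11 cardiomyocyte markers was 13.47 to 13.65 on the 16 arrays, which fits ventricular muscle as labelled. Sedentary HCR rat 5 stood apart: its 4 Xist probe sets read 3.76 to 4.94, against 7.56 to 10.34 in the other 15 rats labelled female, while the Y-linked Eif2s3y read 3.53 there and 3.33 to 3.50 elsewhere. The main values that rest on this array are given with and without it. Rat numbers in the labels name animals within a group, and 4 rats against 4 cannot reach a two-sided exact permutation p below 0.0286.

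In LCR, trained rats had lower readings than sedentary rats for most of the helicase, although no member passed the adjusted threshold. Mcm2, the subunit with the largest difference, read 6.90, 7.20, 6.78 and 7.16 in sedentary LCR rats 2, 3, 5 and 6. In trained LCR rats 1, 2, 3 and 4 it read 6.29, 6.54, 6.53 and 6.65. Every trained rat lay below every sedentary rat. The means were 7.01 ± 0.20 and 6.50 ± 0.15 (SD, n = 4 each), a difference of -0.51 ± 0.09 (SE, 95% interval -0.71 to -0.31), or 1.42-fold. By limma's moderated test the adjusted p was 0.351, and the unadjusted p ranked 5 among the 31042 probe sets.

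Mcm6 behaved alike in its separation: sedentary LCR rats read 5.40, 5.48, 5.39 and 5.39, and trained LCR rats read 5.24, 5.06, 4.99 and 5.15. The difference was -0.30 ± 0.07 (SE, limma adjusted p = 0.450, rank 55 of all probe sets). Mcm5 read 6.98, 6.78, 6.87 and 7.16 in sedentary and 6.57, 6.64, 6.43 and 6.63 in trained LCR, a difference of -0.38 ± 0.11 (SE, adjusted p = 0.589). For both genes the groups did not overlap, though the gap in Mcm5 between the lowest sedentary rat and the highest trained rat was small beside the spread of the sedentary rats.

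Mcm4 read 5.89, 5.66, 5.76 and 5.93 in sedentary LCR and 5.22, 5.62, 5.43 and 5.44 in trained LCR, a difference of -0.38 ± 0.11 (SE, adjusted p = 0.612). Mcm7 read 8.13, 8.29, 8.05 and 8.21 against 7.95, 7.94, 7.89 and 8.00, a difference of -0.23 ± 0.07 (SE, adjusted p = 0.620). These 2 subunits did not overlap between the groups either, but the gaps were narrow. The lowest sedentary and highest trained rats read 5.66 and 5.62 for Mcm4 and 8.05 and 8.00 for Mcm7. Mcm3 was the exception, at 5.98, 5.96, 5.86 and 5.72 in sedentary and 5.76, 5.83, 5.70 and 5.83 in trained LCR, a difference of -0.10 ± 0.07 (SE, adjusted p = 0.966) with overlapping groups.

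**Figure D1:**
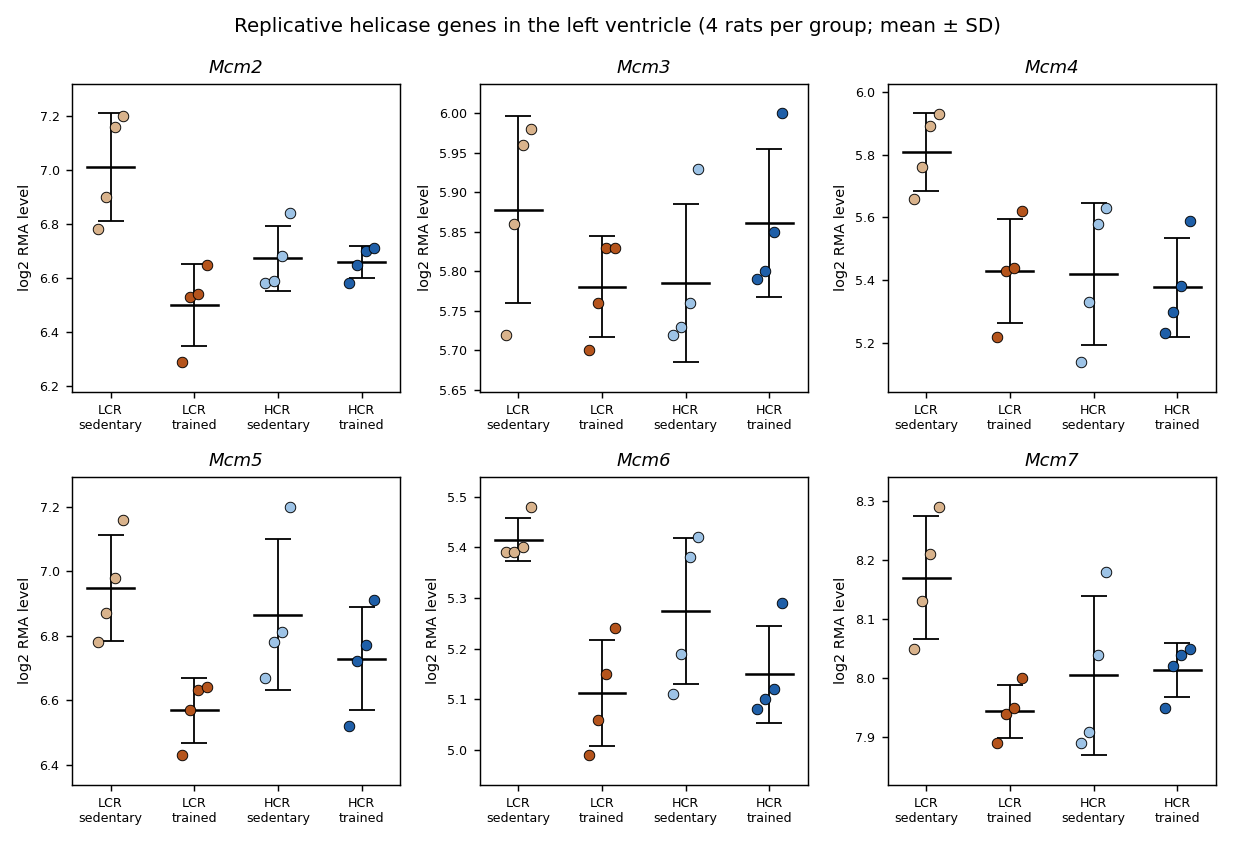
Log2 level (vertical axis) of the 6 helicase genes in each of the 16 rats, by line and training state; points are rats, lines are group means and bars are SD. In Mcm2, Mcm4, Mcm5, Mcm6 and Mcm7 all 4 trained LCR rats lie below all 4 sedentary LCR rats, while in Mcm3 they overlap.

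Thus 5 of the 6 subunits separated sedentary from trained LCR, with the trained rats lower, where 2.10% of the 14217 genes did so. The same count, 5 of 6, was found with arrays centred on their medians (2.22% of genes) and after quantile normalization (1.86%). Called members numbered 0 of 33, against 0% of genes at 1 probe set per gene. Over the 33 members 9 had an unadjusted p under 0.05 and were lower in trained LCR, against 4.55% of genes, and 2 were higher, against 2.22%. Among the 9, beside the 5 helicase genes, were the replication activator E2f1 at -0.27 ± 0.09 (SE), the D-type cyclin Ccnd3 at -0.23 ± 0.09, the anaphase activator Cdc20 at -0.16 ± 0.06 and the mitotic cyclin Ccnb1 at -0.16 ± 0.07. Dimmer probe sets of Cdc20 gave smaller differences, -0.10 ± 0.11, -0.05 ± 0.06, -0.04 ± 0.07 and 0.04 ± 0.06 (SE). The dimmer probe set of Ccnb1 gave -0.11 ± 0.07.

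The 2 that were higher were the kinase inhibitor Cdkn1a, a p53 target, at 0.40 ± 0.18 (SE, adjusted p = 0.882), and the mitotic kinase Aurkb at 0.17 ± 0.08 (SE, adjusted p = 0.860). A dimmer probe set of Cdkn1a gave 0.61 ± 0.23 (SE, adjusted p = 0.803). Cdkn1b differed by -0.04 ± 0.09, and Pcna, the sliding clamp of the polymerases, by -0.08 ± 0.07. The G2 and mitosis genes were split, 6 with a positive and 5 with a negative difference in trained LCR, with a median of 0.029. All 7 G1 cyclins and kinases had negative differences, from -0.23 to -0.03, and none passed.

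Other replication genes showed the same side in LCR. From a list of 53 further genes of replication and nucleotide supply, 46 were measured, and 39 of these had a negative difference with training in LCR. The list was chosen with earlier results of these data known. Of the 46, 18 were lower and 0 higher at an unadjusted p under 0.05, against 4.55% and 2.22% of genes. For 9 of the 46 the groups did not overlap with trained rats lower, against 2.10% of genes, and 0 passed after adjustment. Their median difference was -0.11, beside -0.0045 over all genes. Examples, chosen after their values were seen, are the GINS helicase cofactor Gins4 at -0.36 ± 0.07 (SE), the flap endonuclease Fen1 at -0.34 ± 0.10 and the single-strand binding protein Rpa1 at -0.32 ± 0.07.

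Mitosis genes outside the members were split between the sides. Of 62 further genes of mitosis and cytokinesis 53 were measured, 28 with positive and 25 with negative differences in LCR, a median of 0.0045, and 5 lower and 0 higher at an unadjusted p under 0.05. Of 55 further cell cycle regulators 49 were measured, 31 with negative differences, a median of -0.055, and 4 lower and 1 higher. Of all genes 4.55% were lower and 2.22% higher at that threshold. No gene of either list passed after adjustment.

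Marker levels of other cell types in the same LCR arrays were as follows. The mean level of 14 lymphocyte markers was 5.79 to 6.16 in sedentary and 6.01 to 6.16 in trained LCR, that of 10 macrophage markers 7.43 to 7.79 and 7.48 to 8.07, that of 10 endothelial markers 8.60 to 8.74 and 8.64 to 8.75, and that of 9 fibroblast markers 8.72 to 8.87 and 8.39 to 8.96. The mean level of 8 smooth muscle and pericyte markers was 7.09 to 7.31 and 7.17 to 7.39, and that of 4 erythroid markers 7.22 to 9.21 and 8.19 to 8.58. Each of these ranges overlapped between the groups, as did those of the cardiomyocyte, neutrophil, adipocyte and nerve lists. With training in LCR 7 of 8 smooth muscle and pericyte markers had positive differences (median 0.11, 2 higher at an unadjusted p under 0.05). So had all 10 macrophage markers (median 0.13, 1 higher at such a p), 11 of 14 lymphocyte markers (median 0.055) and 4 of 4 erythroid markers (median 0.31). Negative differences were found in 8 of 9 fibroblast markers (median -0.13, 2 lower at such a p). Endothelial markers were split, 6 positive and 4 negative, with 1 lower at such a p. Of all genes 2.22% were higher and 4.55% lower at that threshold. Their part in the helicase readings was not tested.

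In HCR the readings of all 6 helicase genes overlapped between sedentary and trained rats. Mcm2 read 6.59, 6.84, 6.68 and 6.58 in sedentary HCR rats 3, 4, 5 and 6 and 6.65, 6.70, 6.58 and 6.71 in trained HCR rats 3, 4, 5 and 6. All 8 HCR rats but sedentary rat 4 lay below the lowest sedentary LCR rat. Mcm4 read 5.14, 5.33, 5.63 and 5.58 in sedentary and 5.23, 5.30, 5.59 and 5.38 in trained HCR. Mcm5 read 6.78, 7.20, 6.81 and 6.67 in sedentary and 6.52, 6.77, 6.72 and 6.91 in trained HCR. Sedentary HCR rat 4 was thus the highest of the HCR rats in both Mcm2 and Mcm5.

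Mcm6 read 5.38, 5.42, 5.19 and 5.11 in sedentary and 5.08, 5.12, 5.10 and 5.29 in trained HCR. For Mcm3 the readings were 5.73, 5.76, 5.93 and 5.72 against 6.00, 5.79, 5.80 and 5.85. For Mcm7 they were 7.89, 8.18, 7.91 and 8.04 against 7.95, 8.02, 8.05 and 8.04. Within each of these genes the trained readings lay partly or wholly inside the sedentary range. The training difference in HCR was -0.01 ± 0.09 (SE) for Mcm2, and the median over the 6 subunits was -0.028, with 4 negative and 2 positive.

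The difference between the lines in their training response was tested directly. For Mcm2 it was 0.50 ± 0.13 (SE, HCR response minus LCR response, limma adjusted p = 0.475), and 0.50 without sedentary HCR rat 5 (adjusted p = 0.672). All 6 helicase genes had a positive value, from 0.17 to 0.50, and from 0.15 to 0.50 without that rat. Among the 33 members 3 had an unadjusted p under 0.05 with a positive value, all of the helicase (Mcm2, Mcm4 and Mcm7), against 6.35% of genes, and 1 with a negative value, Plk1 at -0.22 ± 0.09 (SE), against 4.30%. No member and 0% of genes passed after adjustment. Of the 46 other replication genes 31 had a positive value, and 11 were positive and 0 negative at an unadjusted p under 0.05. The direction went with signal level: 66.4% of genes at or above the median level of all probe sets were positive, and 74.1% of those below it negative. Members gave 13 of 18 positive at or above it and 9 of 15 negative below it. Of the helicase genes Mcm2, Mcm5 and Mcm7 lay at or above it and Mcm3, Mcm4 and Mcm6 below. The part of signal level in these values was not tested.

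Averaged over both lines, training went with 11 members lower at an unadjusted p under 0.05, against 4.99% of genes, and 0 higher, against 5.64%. No member passed after adjustment, against 0.00703% of genes. The lowest p values were those of Mcm6 at -0.21 ± 0.05 (SE, adjusted p = 0.249), Mcm2 at -0.26 ± 0.07 (adjusted p = 0.262) and E2f1 at -0.24 ± 0.07 (adjusted p = 0.287). With sedentary HCR rat 5 left out these were -0.23 (adjusted p = 0.381), -0.26 (adjusted p = 0.400) and -0.22 (adjusted p = 0.492). E2f1 had a negative training difference in each line, -0.22 in HCR and -0.27 in LCR.

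In HCR all 11 G2 and mitosis genes had a negative training difference, with a median of -0.11, and none passed the test. Bub1b, a spindle checkpoint kinase, read 5.57, 5.65, 5.62 and 5.66 in sedentary HCR and 5.43, 5.47, 5.43 and 5.49 in trained HCR. The trained rats lay below the sedentary rats without overlap, by -0.17 ± 0.06 (SE, limma adjusted p = 0.263), and by -0.17 without sedentary HCR rat 5 (adjusted p = 0.50).

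Cdkn1c, a kinase inhibitor of quiescent tissue, read 6.46, 6.61, 6.66 and 6.78 in sedentary and 6.33, 6.35, 6.47 and 6.39 in trained HCR, a difference of -0.24 ± 0.10 (SE, adjusted p = 0.309). Ccnb1, the cyclin partner of Cdk1, read 6.05, 6.16, 6.24 and 6.31 against 6.05, 5.91, 6.05 and 6.11, a difference of -0.16 ± 0.07 (SE, adjusted p = 0.316). Both pairs of groups overlapped. In LCR Bub1b read 5.51, 5.52, 5.41 and 5.39 in sedentary and 5.34, 5.56, 5.30 and 5.42 in trained rats, Cdkn1c 6.59, 6.53, 6.69 and 6.46 against 6.23, 6.68, 6.17 and 6.51, and Ccnb1 6.13, 6.14, 6.06 and 6.13 against 6.03, 6.05, 5.93 and 5.82. Without sedentary HCR rat 5 the HCR differences of Cdkn1c and Ccnb1 were -0.23 (adjusted p = 0.551) and -0.15 (adjusted p = 0.571).

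In HCR 0 of 33 members passed, against 0% of genes. Of the 33, 4 were lower at an unadjusted p under 0.05 (Bub1b, Cdkn1c, Ccnb1 and E2f1), against 6.71% of genes, and 0 were higher, against 8.00%. Bub1b alone did not overlap between the groups, 1 of 33 against 3.78% of genes with trained rats lower. The counts are thus not far from the background. The direction also went with signal level: among genes below the median level 75.5% had a negative training difference in HCR and among genes at or above it 65.6% had a positive one. Among members below the median level 14 of 15 were negative, and among the 18 at or above it 10 were. Of 14 lymphocyte markers 11 were negative too (median -0.091, 2 lower at an unadjusted p under 0.05), with a mean level of 5.79 to 6.08 in sedentary and 5.62 to 6.04 in trained HCR. Of 6 adipocyte markers 4 were negative, 2 of them at such a p, with levels of 6.50 to 6.61 and 6.41 to 6.56, while 8 of 10 macrophage markers were positive. The part of these markers and of the narrower spread of the sedentary HCR arrays in the member values was not tested.

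Between sedentary HCR and sedentary LCR, 1 member passed the test. Plk1 (probe set 1370297_at), a kinase that drives entry into mitosis, read 6.53, 6.59, 6.71 and 6.77 in sedentary HCR and 6.46, 6.54, 6.36 and 6.32 in sedentary LCR. In trained rats it read 6.55, 6.48, 6.51 and 6.57 in HCR and 6.56, 6.55, 6.53 and 6.41 in LCR. Among the sedentary rats Plk1 was higher in HCR by 0.23 ± 0.06 (SE, limma adjusted p = 0.0495), or 1.17-fold, with the lowest HCR rat just under the highest LCR rat. Thus 1 of 33 members passed, against 6.30% of genes in either direction and 2.00% with HCR higher. The adjusted p rose to between 0.0520 and 0.142 when any 1 of 13 of the 16 arrays was left out, and stayed at or under 0.05 only without sedentary HCR rat 3 or without trained LCR rat 2 or 4. Without sedentary HCR rat 5 the difference was 0.21 (adjusted p = 0.137).

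Mcm2 and Mcm4 were next by p. Mcm2 was lower in sedentary HCR, at the values given above, by -0.34 ± 0.09 (SE, adjusted p = 0.0506), with 1 pair of rats overlapping. Mcm4 lay in all sedentary HCR rats below the 5.66 of the lowest sedentary LCR rat, a difference of -0.39 ± 0.11 (SE, adjusted p = 0.0536). Without sedentary HCR rat 5 they were -0.34 (adjusted p = 0.121) and -0.46 (adjusted p = 0.0803). This comparison and that of training in LCR share the 4 sedentary LCR arrays, so the 2 sets of helicase values are not independent of each other.

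All 6 helicase genes had negative line differences in sedentary rats, with a median of -0.15. Of 11 G2 and mitosis genes 10 had positive ones, with a median of 0.14, Ccna2 being the exception at -0.016. The training difference in HCR, negative in all 11 of these genes, uses the same 4 sedentary HCR arrays with the opposite sign. The mitotic patterns of these comparisons are therefore not independent of each other. The topoisomerase Top2a was 0.25 ± 0.09 (SE, adjusted p = 0.0812) higher in HCR, the proliferation antigen Mki67 0.18 ± 0.08 (adjusted p = 0.146) and Bub1b 0.16 ± 0.06 (adjusted p = 0.0938). A second, dimmer probe set of Top2a gave only 0.04 ± 0.11 (SE, adjusted p = 0.802). Pcna was lower at -0.23 ± 0.07 (adjusted p = 0.0673), as were Cdk4, the G1 kinase, at -0.21 ± 0.06 (adjusted p = 0.0614) and Ccnd3 at -0.26 ± 0.09 (adjusted p = 0.0911). Tyms, which makes thymidylate, differed by 0.21 ± 0.10 (adjusted p = 0.165). None of these passed. Without sedentary HCR rat 5 they kept their sign, at 0.27 for Top2a, 0.18 for Mki67, 0.17 for Bub1b, -0.19 for Pcna, -0.18 for Cdk4, -0.22 for Ccnd3 and 0.18 for Tyms, with adjusted p from 0.153 to 0.335.

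Over the 33 members 5 were higher and 7 lower in sedentary HCR at an unadjusted p under 0.05, against 13.0% and 18.5% of genes. Groups did not overlap for 3 members with HCR higher (Top2a, Bub1b and Tyms), against 8.86% of genes, and for 4 with HCR lower (Mcm4, Cdk4, Cdkn1b and Pcna), against 11.4%. These shares are close to the background of this comparison. Among all genes below the median level 77.1% had a positive difference and among those at or above it 69.0% a negative one; the members gave 10 of 15 positive below it and 10 of 18 negative at or above it. The mean level of 9 fibroblast markers was also lower in sedentary HCR, 8.44 to 8.66 against 8.72 to 8.87, without overlap. That of 5 nerve and Schwann cell markers was higher, 6.49 to 6.56 against 6.32 to 6.41, as was that of 6 adipocyte markers, 6.50 to 6.61 against 6.41 to 6.47, both without overlap. All 8 smooth muscle and pericyte markers were positive and 2 were called, with overlapping means of 7.23 to 7.44 and 7.09 to 7.31. Of the fibroblast markers 8 of 9 were negative and 2 were called lower. Also called were 1 of 5 nerve and Schwann cell markers, higher, and 1 of 14 lymphocyte markers, lower. Among all genes the shares called were 2.00% higher and 4.29% lower. The part of signal level and of these markers in the member values was not tested.

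Further cell cycle genes were called between the sedentary groups, mostly lower in HCR, as were called genes at large (610 lower and 285 higher). Of all genes 4.29% were called lower and 2.00% higher. These calls depended on single arrays. Over all probe sets the number called fell from 1549 to 112 without sedentary HCR rat 5. It fell to 103 without sedentary HCR rat 4 and to 35 without sedentary LCR rat 6. It rose to between 1708 and 1994 without sedentary HCR rat 3, trained HCR rat 6 or trained LCR rat 2 or 4. For the listed genes below no values without these arrays are given, so their calls are tentative. Of the 46 replication genes 7 were lower and 0 higher, with a median of -0.11 beside -0.018 over all genes. They included Orc5 of the origin recognition complex at -0.54 ± 0.10 (SE, limma adjusted p = 0.0158), Pola2 of the primase complex at -0.58 ± 0.15 (adjusted p = 0.0400) and Rrm1, the large subunit of ribonucleotide reductase, at -0.48 ± 0.09 (adjusted p = 0.0180). Of 53 mitosis genes 2 were lower and 1, Cdca2, was higher at 0.31 ± 0.07 (adjusted p = 0.0305), with a list median of 0.070. Of 49 regulators 3 were lower, the largest Tob2, an antiproliferative factor, at -0.62 ± 0.13 (adjusted p = 0.0264), and 0 higher, with a list median of -0.13.

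**Figure D2:**
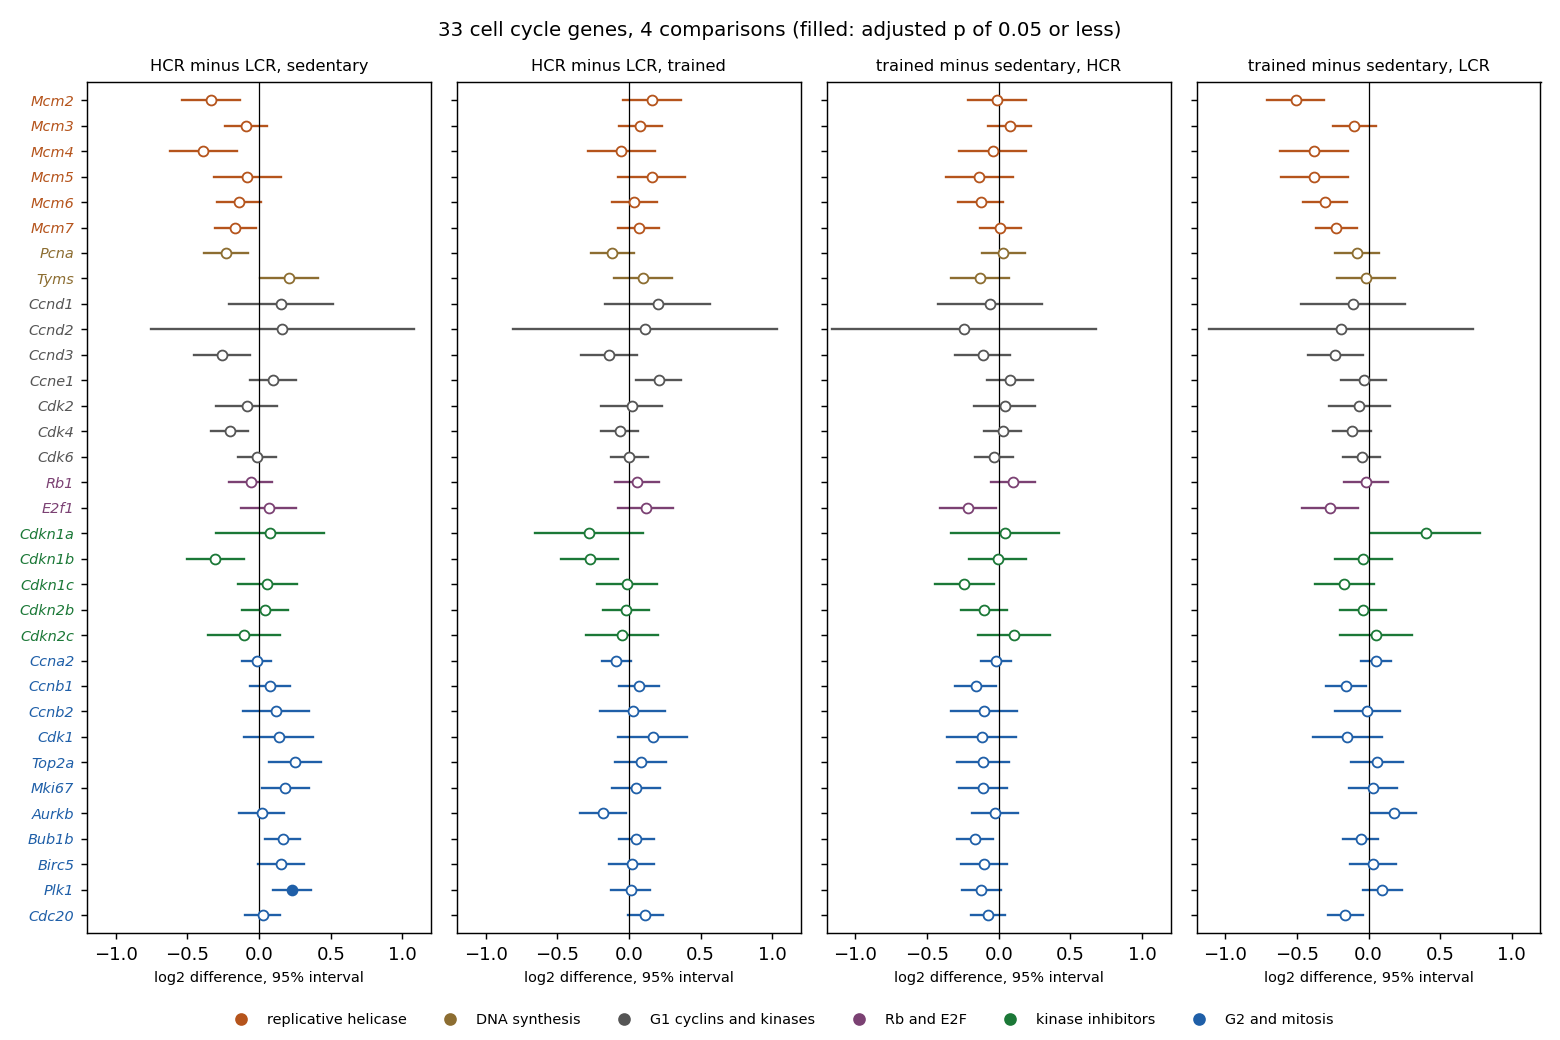
Log2 difference (horizontal axis) with its 95% interval for each of the 33 measured genes in 4 comparisons, coloured by role; filled points passed at an adjusted p of 0.05 or less. Plk1 is the only filled point, helicase genes lie left of 0 in the sedentary line comparison and in LCR training, and the wide intervals belong to Ccnd2.

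Cdkn1b (probe set 1373812_at), which encodes the kinase inhibitor p27, was lower in HCR in both training states. It read 8.38, 8.25, 8.18 and 8.40 in sedentary HCR and 8.07, 8.35, 8.38 and 8.37 in trained HCR. In sedentary LCR it read 8.46, 8.52, 8.79 and 8.65, and in trained LCR 8.39, 8.47, 8.73 and 8.67. Within each training state all HCR rats lay below all LCR rats, by -0.30 ± 0.09 (SE, limma adjusted p = 0.0645, and -0.26 with adjusted p = 0.172 without sedentary HCR rat 5) in sedentary and -0.27 ± 0.09 (adjusted p = 0.485) in trained rats. The gap in trained rats was narrow, with the highest HCR rat at 8.38 and the lowest LCR rat at 8.39.

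Averaged over both states the line difference in Cdkn1b was -0.29 ± 0.07 (SE, adjusted p = 0.0269), or 1.22-fold, and Cdkn1b was the only member called, 1 of 33 against 4.92% of genes in either direction and 3.38% with HCR lower. Without sedentary HCR rat 5 it was -0.27 (adjusted p = 0.0601). The call was also lost without sedentary HCR rat 4, sedentary LCR rat 5 or 6, or trained LCR rat 3 or 4, with adjusted p from 0.0541 to 0.0601 over these 6 arrays. A second, dimmer probe set of the gene gave 0.017 ± 0.053 (SE, adjusted p = 0.871), so the 2 probe sets disagree.

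At an unadjusted p under 0.05 5 members were higher in HCR over both states, against 11.0% of genes, and 5 lower, against 16.9%. The other lists gave called genes on the lower side only: 9 of 46 replication genes, 5 of 53 mitosis genes and 4 of 49 regulators were lower in HCR, beside the 3.38% of all genes. The largest were Cdc25b, a phosphatase that activates Cdk1, at -0.58 ± 0.15 (SE, adjusted p = 0.0470), Pola2 at -0.40 ± 0.10 (adjusted p = 0.0432), Tob2 at -0.40 ± 0.09 (adjusted p = 0.0306) and the cyclin G family gene Ccng2 at -0.35 ± 0.09 (adjusted p = 0.0451). Over all probe sets the calls in this comparison numbered 1191, and 529 without sedentary HCR rat 5. For the listed genes no values without that rat are given.

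Between trained HCR and trained LCR no member passed, 0 of 33 against 0.0914% of genes. After Cdkn1b the lowest p values were those of Ccne1 and Aurkb. Ccne1, the E-type cyclin that works with Cdk2, read 6.18, 6.42, 6.20 and 6.43 in trained HCR and 6.09, 6.06, 6.02 and 6.22 in trained LCR, a difference of 0.21 ± 0.07 (SE, limma adjusted p = 0.519). Aurkb read 5.39, 5.53, 5.27 and 5.41 against 5.62, 5.61, 5.57 and 5.51, a difference of -0.18 ± 0.08 (SE, adjusted p = 0.613). In sedentary rats Ccne1 read 6.16, 6.29, 6.28 and 6.19 in HCR and 5.96, 6.23, 6.20 and 6.13 in LCR, and Aurkb 5.34, 5.44, 5.46 and 5.44 against 5.64, 5.32, 5.40 and 5.25. Among trained rats the ranges of the lines overlapped for both genes, in Ccne1 through trained LCR rat 4 and in Aurkb through trained HCR rat 4.

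At an unadjusted p under 0.05 1 member was higher in trained HCR, against 3.54% of genes, and 2 were lower, against 4.86%. Cdkn1b alone did not overlap, with HCR lower, against 1.81% of genes. The helicase genes, all negative in the sedentary comparison, had 5 positive and 1 negative differences here, with a median of 0.075. None of the further replication, mitosis or regulator genes was called in trained rats.

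**Figure D3:**
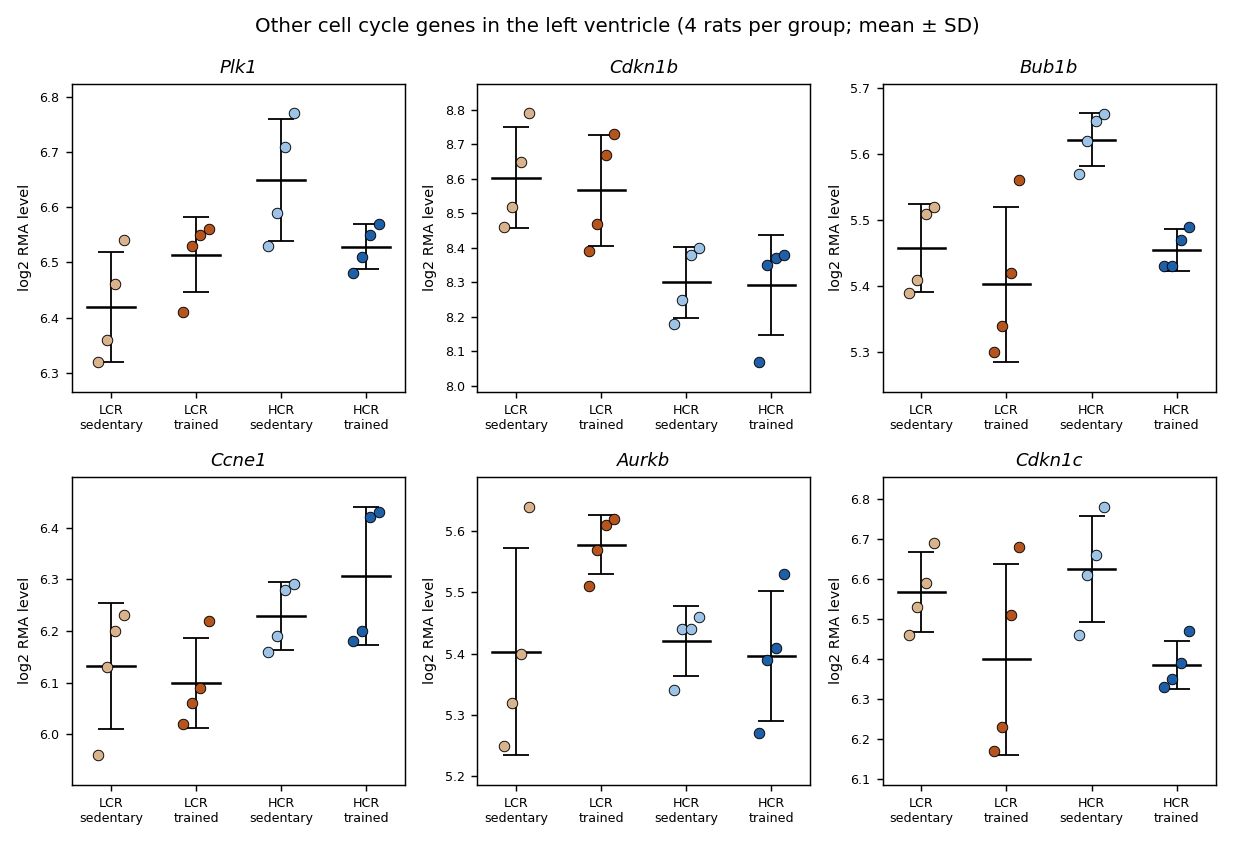
Log2 level (vertical axis) of 6 other members in each rat, by line and training state; points are rats, lines are group means and bars are SD. Cdkn1b is lower in HCR than in LCR in both states, Plk1 and Bub1b are highest in sedentary HCR, and Ccne1, Aurkb and Cdkn1c overlap between the groups compared.

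How the genes varied together between rats of 1 group was read from the slope of each gene on Top2a, which is made from S phase to mitosis, with the 4 group means removed. Top2a read from 5.54 to 6.10 over the 16 arrays. No slope passed after adjustment, 0 of 32 members and 0% of 31041 probe sets. At an unadjusted p under 0.05 6 of 32 members had a positive slope, against 3.96% of genes, and 0 a negative one, against 3.72%. Slopes were positive in 23 of 32 members, against 48.7% of genes.

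Cdk1, the kinase of mitotic entry, had the steepest slope among the 6, 1.06 ± 0.27 log2 units per unit of Top2a (SE, adjusted p = 0.683). The others were Ccnb2 at 0.83 ± 0.29, Tyms at 0.64 ± 0.27, Mki67 at 0.58 ± 0.22, Cdc20 at 0.45 ± 0.15 and Bub1b at 0.41 ± 0.16. Of these 6, 5 belong to the G2 and mitosis group and Tyms to DNA synthesis. The helicase genes had slopes of 0.10 to 0.44, all positive, with intervals that included 0. Plk1 had 0.20 ± 0.21.

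Genes outside the members divided by role. Of 53 further mitosis genes 14 had a positive slope at an unadjusted p under 0.05 and 0 a negative one. Of 46 replication genes 1 was positive and 2 negative, and of 49 regulators 3 and 3. With Mki67 in place of Top2a 5 members (Mcm2, Mcm5, Ccnb2, Cdk1 and Top2a) and 10 mitosis genes passed the same threshold, against 1.80% of genes, and with arrays centred on their medians 4 and 8, against 1.41%. Without sedentary HCR rat 5 the counts were 6 and 14, against 4.23%. Among probe sets at or above the median level, which left 18 members and 13 mitosis genes, 0 and 2 passed, against 2.09% of genes, and 9 of the 18 members had positive slopes. These slopes across 16 arrays describe joint variation.

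**Figure D4:**
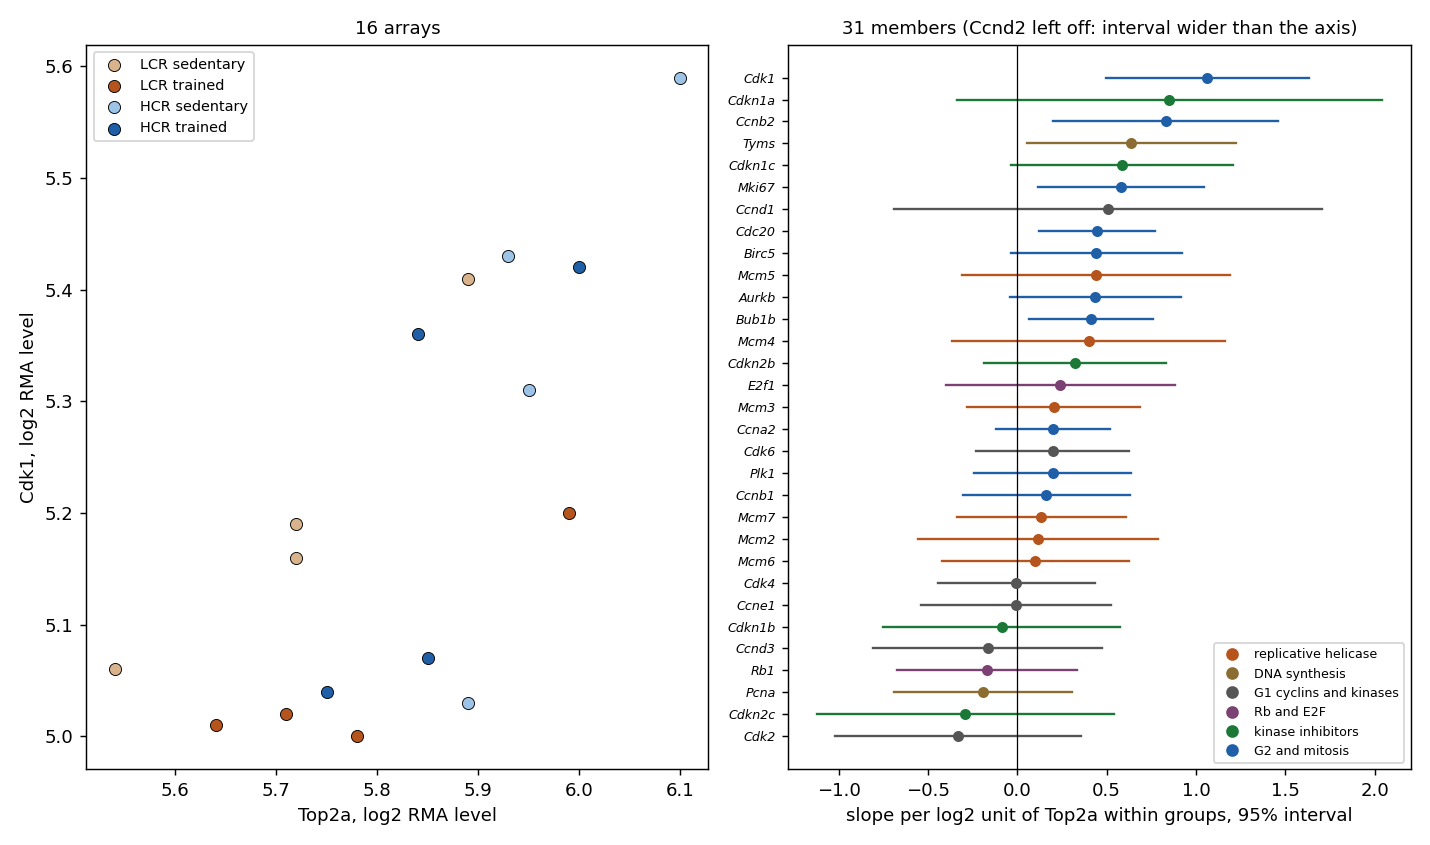
Left, Cdk1 against Top2a (log2 levels) on the 16 arrays, coloured by group. Right, slope on Top2a within groups with its 95% interval for 31 members, Ccnd2 left off because its interval is wider than the axis; Cdk1 has the steepest slope, 1.06, followed by Cdkn1a at 0.85, whose interval includes 0, and Ccnb2 at 0.83.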

How the data were processed

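The deposited table holds, per the labels' design text, log2-type values that the authors made by robust multiarray averaging (background correction, quantile normalization and summary per probe set). The log was taken to base 2, which no source used here states, and the unequal interquartile ranges show that the summarised columns are not identical in distribution. RMA and limma are named, without versions, in the submitters' processing notes.

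From the 31099 probe sets 57 controls were removed. limma 3.58.1 in R 4.3.3 fitted 1 mean per group to all 16 arrays (12 residual degrees of freedom), with eBayes and Benjamini-Hochberg adjustment over 31042 probe sets for each of 7 comparisons, two-sided, with calls made where the adjusted p did not exceed 0.05. Counts used 1 probe set per gene, the brightest. Of the probe sets 20826 have 1 gene symbol, 436 several and 9780 none in the platform table. Every array's values are given for members called in any comparison and for the 3 of lowest p in each line and training comparison, and for all 6 helicase genes. The other lists name at most 4 called genes in each direction. Members and lists were chosen with earlier results of these data known. The fits were tested on simulated data. Alternatives covered normalization, filters, weights, variance trend, rat number, other probe sets and each array left out. The number of arrays limits the precision: the median standard error of a difference over the members was 0.079.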

Additional observations from a re-analysis of the deposited data

Results flagged for a closer look

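Among 44 group readings of 11 members (4 rats each), 3 had a rat whose gap to the nearest other rat took up more of the group's range than Dixon's 95% critical value for 4 samples, which chance exceeds in about 1 in 20 groups. Trained HCR rat 3 had a Cdkn1b level of 8.07, below the next at 8.35 (0.883 of the range). Sedentary HCR rat 3 had an Aurkb level of 5.34, below the next at 5.44 (0.831 of the range). Sedentary LCR rat 5 had a Ccnb1 level of 6.06, below the next at 6.13 (0.870 of the range).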

How the results depend on the processing

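In sedentary rats the line difference called 1 member, Plk1, as fitted. It called 5 with arrays centred on their medians, 2 among probe sets at or above the median level, 3 with 1 probe set per gene, 2 with only the arrays of the groups compared, 0 with a variance trend, 8 with array weights and 8 with the replicate block (rat number), and 0 to 2 when 1 array was left out. After quantile normalization it called 1, which was not Plk1 but Mcm4 at -0.46 (limma adjusted p = 0.0444). All probe sets called ranged from 35 to 4183, against 1549 as fitted. The Plk1 call held in 7 of 24 alternatives, while Mcm2 passed in 8 of 24 and Mcm4 in 7 of 23.

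Over both training states the line difference called 1 member, Cdkn1b. It called 3 with centred arrays, 0 after quantile normalization, 2 with array weights, 3 with the replicate block, and 0 to 5 when 1 array was left out. All probe sets called ranged from 520 to 2575, against 1191 as fitted. The Cdkn1b call held in 16 of 24 alternatives, and its other probe set reversed the sign (0.017). The cause of these shifts was not tested.

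The line difference in trained rats, both training differences, their average, the difference in response and the slopes on Top2a called 0 members under each alternative run. The Mcm2 difference with training in LCR lay between -0.59 and -0.44 when 1 array was left out, and all 6 helicase genes stayed negative there. No label says whether equal rat numbers in different groups mark a shared block. Same-number deviations correlated at -0.23 to 0.34, with 6 of 16 above 0.1, which cannot decide it. Leaving out an array leaves 3 rats in its group, and differences near 0.1 are of the size of their standard error.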

Other observations

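Ccnd2, the D-type cyclin D2, varied between rats of 1 group more than any other member. Its residual standard deviation was 0.72 on the log2 scale, and only 0.232% of 14217 genes had a larger one; Cdkn1a at 0.29 and Ccnd1 at 0.28 came next among the members. Sedentary HCR rats 3, 4, 5 and 6 read 9.36, 10.25, 9.86 and 10.03. Trained HCR rats 3, 4, 5 and 6 read 9.75, 10.21, 10.17 and 8.40. Sedentary LCR rats 2, 3, 5 and 6 read 10.70, 8.72, 10.20 and 9.21. Trained LCR rats 1, 2, 3 and 4 read 10.00, 8.78, 9.24 and 10.05. The 4 groups overlapped, and the lowest and highest rats, at 8.40 and 10.70, belonged to trained HCR and sedentary LCR.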
